A study of Mus musculus with 6 samples.

Results

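The 35 genes described here encode the transporters that bring glucose into a cell and lactate out of it, the enzymes of glycolysis and its fructose-2,6-bisphosphate switch, and the enzymes of the pentose phosphate pathway. They were chosen by symbol, with no threshold on a measured value, and each symbol matched exactly 1 of the 37620 gene identifiers in the files. RNA was sequenced in 6 libraries of mature brown fat from C57BL/6 mice aged 6 weeks. The 3 libraries labelled PHOSPHO1 knockout (KO) and the 3 labelled wild type (WT) were each a pool of 3 mice. The cells were those that floated after collagenase digestion of the minced tissue. The sources used here do not say how the knockout allele was made, and both groups share strain and age.

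Brown fat takes up glucose through insulin-responsive and constitutive transporters of the SLC2 (GLUT) family, and hexokinase traps it as glucose-6-phosphate. Glycolysis then splits the sugar to pyruvate, with phosphofructokinase as its main control point, and lactate dehydrogenase interconverts pyruvate and lactate. The pentose phosphate pathway branches off at glucose-6-phosphate and yields NADPH for fatty acid synthesis and ribose for nucleotides. Most steps have several isozymes, some of them characteristic of muscle, brain or other tissues.

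The libraries held 10576800 to 14239307 counts, of which the mitochondrial genome took 39.1 to 56.5%. All 12 brown fat markers had counts in every library, at very different levels in CPM (counts scaled to library size). Ucp1, the uncoupling protein of heat production, had 4873, 3817 and 3899 CPM in KO, against 2285, 3288 and 2417 CPM in WT. Elovl3, a fatty acid elongase, lay between 1.47 and 5.92 CPM over the 6 libraries. Dio2, which activates thyroid hormone, had 13.4, 8.86 and 8.58 CPM in KO, against 73.6, 30.5 and 26.1 CPM in WT. Of the 12 markers, 1 was called higher and 1 lower in KO (edgeR, adjusted p under 0.05), against 1.63 and 7.52% of all tested genes. Phospho1 itself held 18, 15 and 17 counts in KO libraries 1, 2 and 3, against 13, 5 and 5 in WT libraries 1, 2 and 3. It was thus not lower in the libraries labelled KO, at a log2 fold change (KO over WT) of 1.53 (SE 0.46; adjusted p = 0.056, edgeR quasi-likelihood), and every direction below is that of the labels. Most of its exonic sequence overlaps Zfp652 (89.6%) and Abi3 (84.2%), so these few reads check the labels little. In such bulk samples, fewer cells of a type and less RNA per cell cannot be told apart. Nothing beyond the pooling says how the pools of a group were separated, so p-values measure the spread between these samples.

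Some of these genes have near-identical copies elsewhere in the genome, and the sequences below show why their counts are uncertain. Each is a 50-base stretch of the coding sequence, 5′ to 3′, that also stands letter for letter in transcripts of other genes. The Gapdh stretch occurs in 84 other genes of the GENCODE M21 annotation, the Eno1 stretch in 5 and the Pgam1 stretch in 3. A read that lies wholly within such a stretch cannot be assigned to a single gene by its own letters. The read length is not given in the sources used here.
Gapdh: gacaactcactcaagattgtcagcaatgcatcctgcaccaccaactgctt
Eno1: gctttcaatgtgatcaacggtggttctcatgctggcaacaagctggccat
Pgam1: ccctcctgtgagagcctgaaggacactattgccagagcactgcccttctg

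Where a copy differs at all, it can be by a single letter. A 60-base stretch of the Eno1 coding sequence and its match in the processed pseudogene Gm4735 on chromosome 2 differ at 1 base, which stands in capitals.
Eno1: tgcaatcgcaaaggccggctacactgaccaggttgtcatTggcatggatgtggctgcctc
Gm4735: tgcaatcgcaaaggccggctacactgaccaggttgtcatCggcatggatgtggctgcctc

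Of the 35 genes, 33 had enough counts to be tested across the whole table of 12068 genes. Hkdc1, a hexokinase-domain enzyme, had 0 counts in all 6 libraries, which allows a level of up to 0.169 to 0.306 CPM depending on the library (3 counts, counting error only). Eno2, the enolase known from neurons, lay between 0.0897 and 0.619 CPM and was not tested. Together the 35 genes took 1.08, 0.993 and 1.21% of the nuclear counts in the KO libraries, against 0.985, 0.905 and 0.861% in the WT libraries. The lowest KO library lay just above the highest WT library, and this share was not tested.

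Levels between genes are compared as TMM-scaled CPM per kb of the longest protein-coding transcript, averaged over the 6 libraries. Aldoa, the aldolase that cleaves fructose-1,6-bisphosphate, was the most abundant at 559.8 CPM per kb. Ldha, a lactate dehydrogenase subunit, followed at 441 CPM per kb, and then the pentose phosphate enzymes Taldo1 (transaldolase) at 322 and Tkt (transketolase) at 235 CPM per kb. Ldhb, the other main lactate dehydrogenase subunit, stood at 196, Tpi1 (triose phosphate isomerase) at 138 and Pkm (pyruvate kinase) at 123 CPM per kb. Of the other non-oxidative pentose phosphate enzymes, Rpe ranked 14 and Rpia 21 (8.40 CPM per kb). Neighbours in this order often lay within the spread between libraries: Rpe and Pfkl both stood at 27.0 CPM per kb. The entry steps ranked lower, with Slc2a4 at 79.1 and Hk2 at 11.9 CPM per kb.

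Gapdh, the glyceraldehyde-3-phosphate dehydrogenase often used as a housekeeping gene, ranked 30 of 35 at 1.00 CPM per kb. Its counts were 18, 10 and 21 in the KO libraries, against 23, 16 and 18 in the WT libraries. Of the 50-base windows of its transcript, 82.5% also occur in at least 1 of 222 other genes, 220 of them pseudogenes or predicted genes. Its whole coding sequence of 1002 bases stands in Gm7336, annotated as a processed pseudogene. Pgk1, the phosphoglycerate kinase, shared 68% of its windows and stood at 3.10 CPM per kb, Eno1 shared 72.2% at 17.99 CPM per kb, and Pgam1 shared 41.5% at 6.64 CPM per kb. Counted per kb of unshared sequence, Gapdh stood at 5.95 CPM per kb. Of the 89 genes that share at least 100 windows with Gapdh, the files list 45, which together held 345, 213 and 302 counts in the KO libraries, against 301, 235 and 154 in the WT libraries. How reads with several matches were counted is not given in the sources used here, so the levels of these 4 genes are uncertain and their part in the order was not tested. Another 16 members share no such window with any other gene, Tkt, Slc2a4 and Slc16a1 among them. Between these ends lay Pkm (34.4%), Ldhb (27%), Gpi1 (25.3%), Pfkfb2 (25.1%), Rpe (19.1%), Pfkp (17.1%), Ldha (16.6%), Aldoa (13.5%) and Taldo1 (10.9%). Windows were matched on both strands. For Pfkfb2, Rpe and Pfkp the only sharing gene (Gm29427, Kansl1l and Pitrm1) overlaps the member at its own locus, so these shares are not copies elsewhere. Exons of Pgls, Pkm and Pfkm overlap another gene on the same strand over 20.6, 15.3 and 10.2% of their bases.

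**Figure D1:**
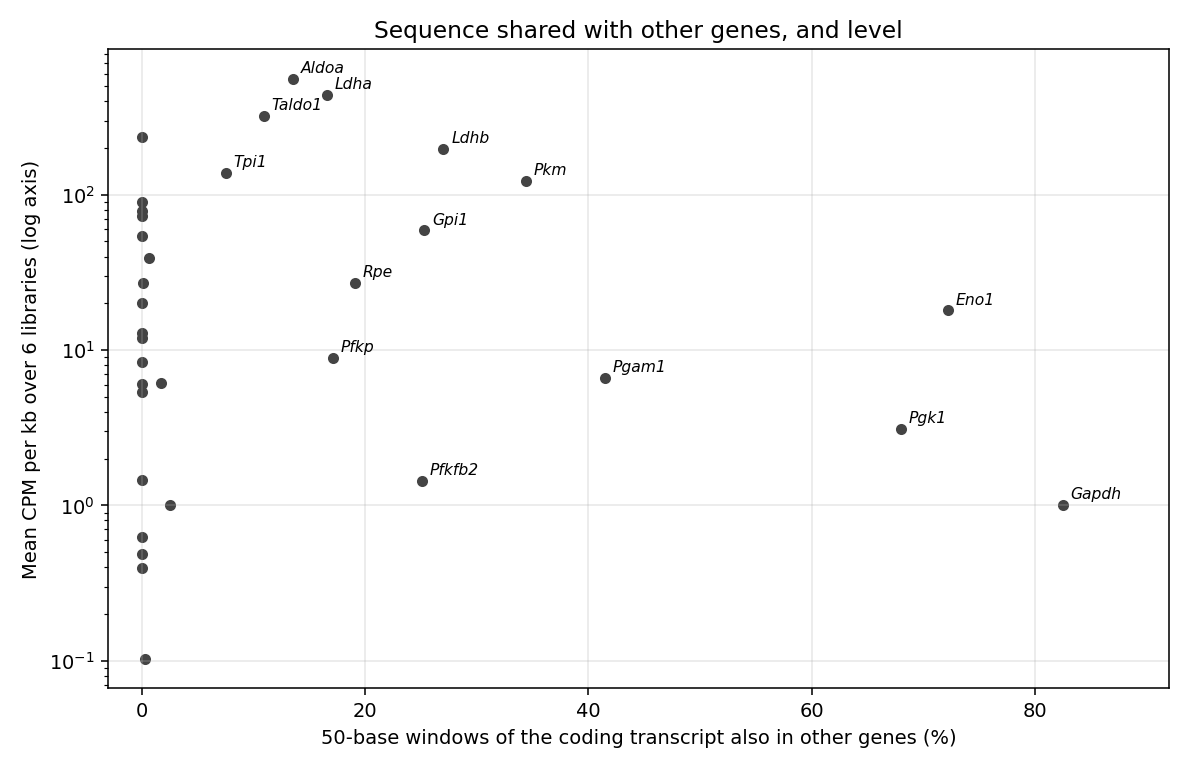
Share of 50-base windows of each gene's longest coding transcript that also occur in other genes (x axis, %) and its mean level over 6 libraries (y axis, TMM-scaled CPM per kb, log axis); each point is 1 gene and those over 5% are named. Gapdh, Eno1, Pgk1 and Pgam1 lie to the right with 82.5, 72.2, 68 and 41.5% of windows shared, and Hkdc1, at 0, is not drawn.

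**Figure D2:**
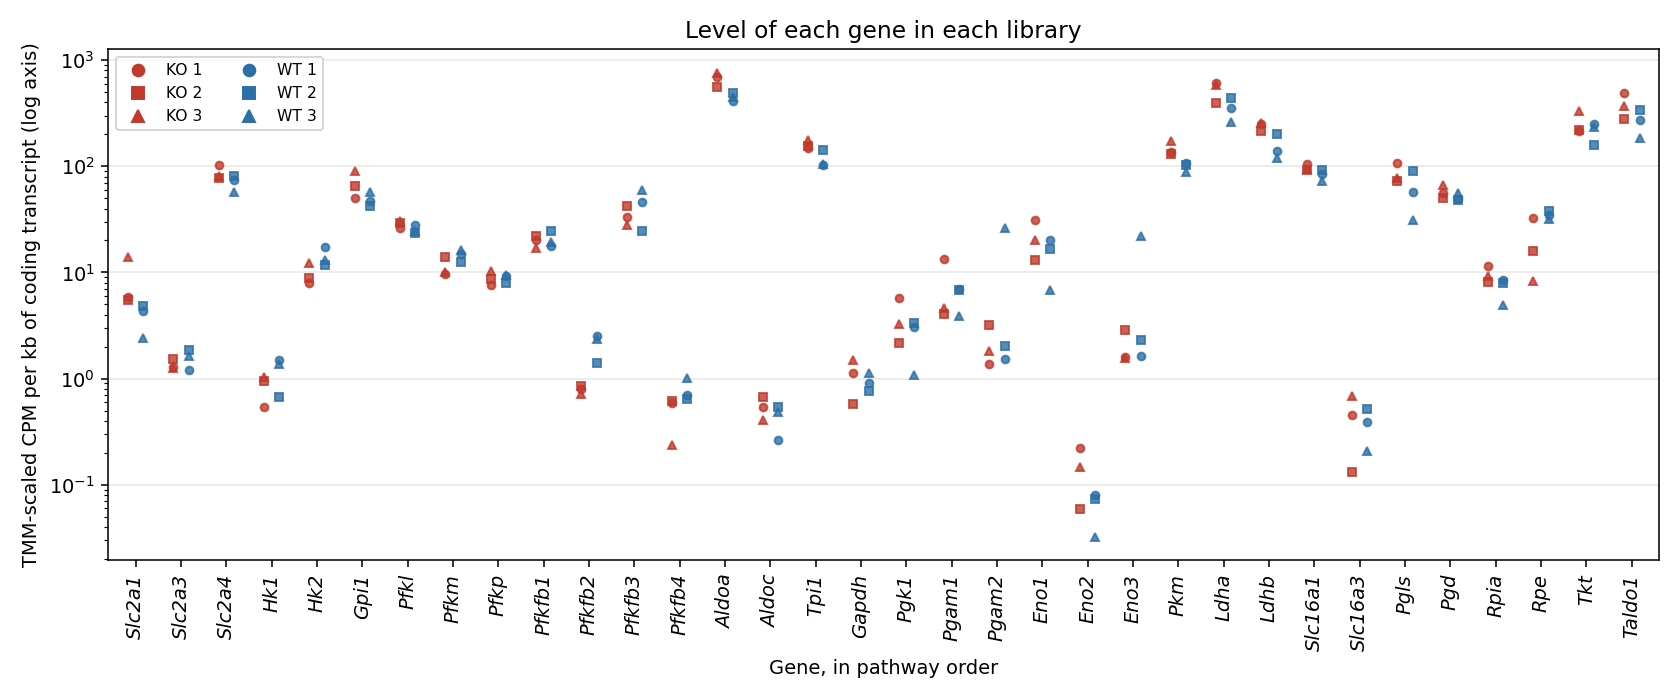
Level of each gene in each library (y axis, TMM-scaled CPM per kb, log axis), with genes in pathway order on the x axis; red symbols are the 3 KO libraries and blue symbols the 3 WT libraries. Aldoa and Ldha stand highest, Gapdh lies near 1.00 CPM per kb, Pgam2 and Eno3 have a single high WT library, and Hkdc1, at 0, is not drawn.

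Between the groups, 1 of the 33 tested genes passed the threshold: Pfkfb2 was lower in KO. None was higher (edgeR quasi-likelihood, adjusted p under 0.05). Over all 12068 tested genes, 9.16% passed, 1.63% higher and 7.52% lower, so a single call among 33 does not stand above the background. At an unadjusted p under 0.05, 5 members were higher (Slc2a1, Ldhb, Aldoa, Pkm and Ldha) and 2 lower (Pfkfb2 and Rpe), against 30.8% of all tested genes. DESeq2 called Slc2a1 higher as well (adjusted p = 0.038), where it called 4.2% of genes higher, and the adjusted p of Slc2a1 ran from 0.038 to 0.349 over the alternatives.

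Most of the tested genes had values above those of WT under TMM scaling, by small amounts. The median log2 fold change of the 33 was 0.22, against 0.03 over all tested genes, and 21 of them (63.6%) were above 0, against 51.4% of all tested genes. The KO and WT libraries did not overlap for 8 of the 33 (24.2%), against 35.4% of all tested genes. Those above in KO were Slc2a1, Aldoa, Tpi1, Pkm, Ldhb and Slc16a1, and those below were Pfkfb2 and Pfkfb4, against 15.8% of all tested genes above and 19.6% below. The fold changes also moved with transcript length: across genes, which are not independent replicates, Spearman's rho with the length of the longest transcript was -0.42 over the 33 members and -0.58 over 11863 tested genes. With offsets for length and GC content in the fit, the members' median was 0.12 for the longest transcript and 0.02 for the median transcript, against 0.03 and 0.06 over all tested genes. With the longest-transcript offsets, rho over the 33 members was 0.28, of the opposite sign. With those offsets 21 of the 33 (63.6%) were above 0, against 52.4% of all tested genes. With the median-transcript offsets 17 (51.5%) were, against 53.8% of all tested genes. Scaling by total counts alone moved the median of all tested genes to -0.23 and that of the members to -0.05. It left 15 of the 33 (45.5%) above 0, against 36.4% of all tested genes.

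**Figure D3:**
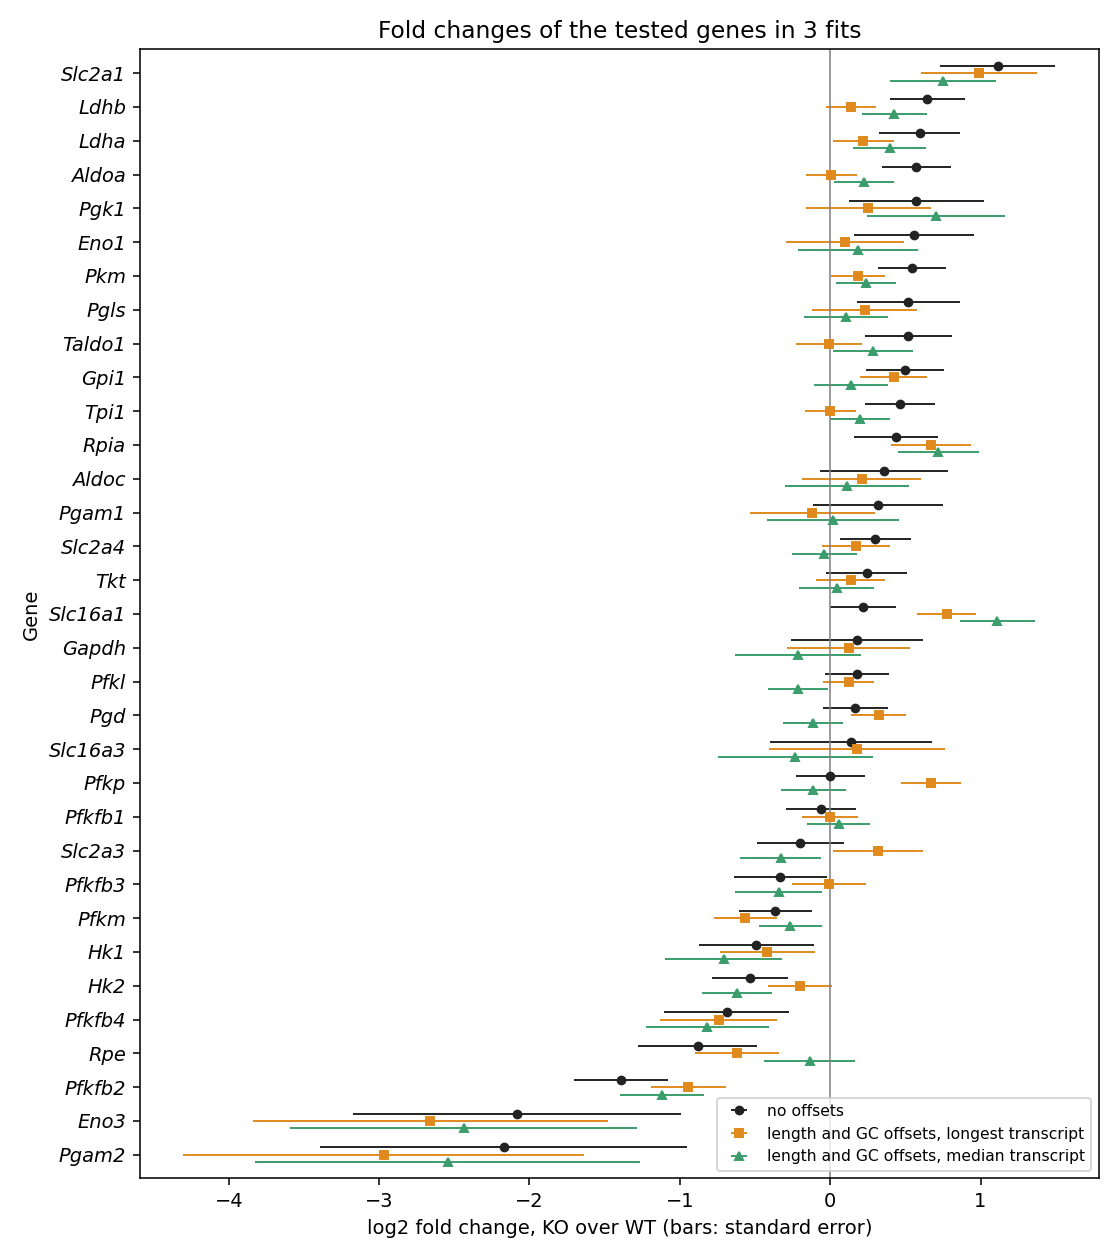
log2 fold change of each of the 33 tested genes, KO over WT (x axis; bars are standard errors), in the fit with no offsets and in 2 fits with length and GC offsets (longest or median transcript). Pfkfb2 lies at -1.39 with no offsets, and Ldhb, Aldoa, Tpi1 and Taldo1 lie nearer 0 with the longest-transcript offsets than without.

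Pfkfb2 encodes a bifunctional enzyme that makes and breaks fructose-2,6-bisphosphate, the activator of phosphofructokinase, and is known from heart. It had 3.54, 3.77 and 3.17 CPM in KO libraries 1, 2 and 3, against 11.1, 6.14 and 10.4 CPM in WT libraries 1, 2 and 3. All KO libraries lay below all WT libraries. The mean was 3.49 ± 0.307 CPM in KO and 9.20 ± 2.67 CPM in WT (SD, n = 3 each), a fitted log2 fold change of -1.39 ± 0.31 (SE; adjusted p = 0.024, edgeR). The call was lost with offsets for length and GC content (-0.94, adjusted p = 0.076, and -1.12, adjusted p = 0.057, for the longest and the median transcript). It was also lost without KO 2 (adjusted p = 0.062), KO 3 (0.099), WT 1 (0.155) or WT 3 (0.067), with log2 fold changes of -1.47, -1.34, -1.24 and -1.33, and over all alternatives its adjusted p ran from 0.003 to 0.155. Of its 50-base windows, 25.1% are shared with 1 other gene, Gm29427, which overlaps Pfkfb2 and is absent from the counts. On the same strand, 17.4% of the exonic bases of Pfkfb2 are overlapped.

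Of the other enzymes of this switch, Pfkfb3 and Pfkfb1 were more abundant than Pfkfb2 per kb and Pfkfb4 was rarer. Pfkfb3, the inducible isozyme with high kinase activity, took 60.4, 64.5 and 61.0% of the family's CPM per kb in the KO libraries, against 68.8, 48.1 and 72.3% in the WT libraries. Pfkfb3 had 160, 203 and 134 CPM in KO, against 221, 118 and 286 CPM in WT, and the groups overlap. Pfkfb1, known from liver and muscle, lay between 31.8 and 45.9 CPM over the 6 libraries. Pfkfb4 had 2.03, 2.13 and 0.817 CPM in KO, against 2.42, 2.25 and 3.50 CPM in WT, with a fitted log2 fold change of -0.69 ± 0.42 (SE; adjusted p = 0.274, edgeR).

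Because Pfkfb2 was the gene called and Slc2a1 the gene nearest to a call on the other side, their promoters are shown (RefSeq, GRCm38.p6, the 250 bases before an annotated start, read on the gene's strand). Capitals mark the motif ACGTG, the core of sites for hypoxia-inducible and other basic helix-loop-helix factors, searched on both strands. Pfkfb2 has 3 such windows in the table, and the printed one was picked because it holds CACGTG; of the others, 1 holds a single ACGTG and 1 holds none. The palindrome CACGTG holds ACGTG on each strand and is counted in both searches.
Pfkfb2, chr1:130715822-130716071, minus strand: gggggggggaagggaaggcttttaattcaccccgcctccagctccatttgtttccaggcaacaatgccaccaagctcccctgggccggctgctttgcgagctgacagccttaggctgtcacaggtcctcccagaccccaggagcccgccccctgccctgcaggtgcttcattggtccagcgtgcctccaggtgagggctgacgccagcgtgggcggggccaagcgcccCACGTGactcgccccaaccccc
Slc2a1, chr4:119108495-119108744, plus strand: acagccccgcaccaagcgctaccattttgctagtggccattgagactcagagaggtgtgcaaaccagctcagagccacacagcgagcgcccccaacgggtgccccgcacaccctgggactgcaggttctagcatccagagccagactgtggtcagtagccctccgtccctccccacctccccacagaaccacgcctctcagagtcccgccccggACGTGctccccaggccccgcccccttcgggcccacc

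The promoter table had entries for 33 of the 35 genes, with 51 windows. ACGTG stood in 16 of the 51 windows (31.4%), in 12 genes, against 16.6% of all 32851 windows of the same length. The 12 genes were Aldoa, Hk2, Ldha, Pfkfb2, Pfkfb3, Pfkm, Pgam1, Pgk1, Pkm, Slc16a1, Slc16a3 and Slc2a1. CACGTG stood in 5 of the 51 windows (9.80%), against 6.02% of all windows. A match describes these letters only, and no factor's binding was measured.

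Among the glucose transporters, Slc2a4 (GLUT4), the insulin-responsive transporter of fat and muscle, led. Of the summed CPM per kb of Slc2a1, Slc2a3 and Slc2a4, it took 93.6, 91.6 and 84.3% in the KO libraries, against 93.1, 92.3 and 93.4% in the WT libraries. Other Slc2a genes are not in this share. The CPM of Slc2a4 were 261, 195 and 204 in KO, against 189, 203 and 144 in WT, with overlapping groups and a fitted log2 fold change of 0.30 ± 0.24 (SE; adjusted p = 0.394, edgeR). Slc2a1 (GLUT1), the constitutive transporter of many cell types, had 19.0, 18.05 and 45.1 CPM in KO, against 14.0, 15.9 and 7.90 CPM in WT. KO 3 was highest and WT 3 lowest, the groups did not overlap, and the log2 fold change was 1.11 ± 0.38 (SE; adjusted p = 0.082, edgeR). Without KO 3 it was 0.54 (adjusted p = 0.349) and without WT 3 it was 0.85 (adjusted p = 0.229). Over 6 erythroid markers the summed level was 2829, 1209.7 and 3505 CPM in KO, against 802, 1378 and 366 CPM in WT, so the highest and lowest libraries were those of Slc2a1. The same libraries were highest and lowest for the summed macrophage and leukocyte markers, at 496, 253 and 535 CPM in KO, against 227, 238 and 117 CPM in WT. Lyz2 made up most of this sum, with 391, 197 and 458 CPM in KO, against 159, 161 and 68.2 CPM in WT. Of the 12 markers in the sum, 5 were highest in KO 1, 4 in KO 3, 2 in WT 1 and 1 in WT 3. The stromal markers summed to 1239, 1066 and 1428 CPM in KO, against 829, 870.3 and 937 CPM in WT. Neither this sum nor that of the macrophage and leukocyte markers overlapped between the groups. Among the stromal markers, Ly6a had 360, 237 and 402 CPM in KO, against 144, 157 and 101 CPM in WT, and Cd34 did not overlap either. Pdgfra, Dcn, Lum, Col1a1, Col1a2 and Col3a1 each overlapped between the groups. The nerve and Schwann markers summed to 97.4, 93.3 and 118 CPM in KO, against 103, 96.2 and 67.0 CPM in WT. Their highest and lowest libraries were also KO 3 and WT 3. Endothelial markers summed to 761, 646 and 654 CPM in KO, against 708, 542 and 634 CPM in WT. Mural markers summed to 946, 729 and 504 CPM in KO, against 1326, 989 and 869 CPM in WT. Neither of these sums was highest in KO 3 or lowest in WT 3. The erythroid marker Slc4a1 was at or near 0 in every library, the rest being globin genes and Alas2, and the part of these other cell types in the Slc2a1 result was not tested. Slc2a3 (GLUT3), known from neurons, lay between 4.79 and 7.30 CPM.

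Hk2, the insulin-regulated hexokinase of muscle and fat, was the leading hexokinase, with a mean share of 92.1 ± 1.74% in KO and 92.4 ± 2.07% in WT (SD, n = 3 each). These SDs do not cover the choice of transcript length. Over the 6 libraries Hk2 averaged 92.2% with the longest transcript, 76.2% with median lengths and 95.6% with union-of-exon lengths (all exons of a gene merged). It had 44.0, 48.8 and 67.8 CPM in KO, against 95.2, 64.8 and 72.8 CPM in WT. KO 3 lay above WT 2, so the groups overlapped, and the log2 fold change was -0.54 ± 0.25 (SE; adjusted p = 0.173, edgeR). Hk1, the housekeeping hexokinase, stood at 3.60 ± 1.13 CPM in KO and 5.05 ± 1.91 CPM in WT. Gpi1, the phosphoglucose isomerase, had 146, 188 and 263 CPM in KO, against 135, 123 and 165 CPM in WT (log2 fold change 0.50 ± 0.26 SE, adjusted p = 0.215 by edgeR).

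Phosphofructokinase, the committing step, came from 3 genes. The liver-type Pfkl took 60.4, 56.0 and 60.2% of the family in the KO libraries, against 53.7, 53.3 and 49.2% in the WT libraries, and the groups did not overlap. The difference was 6.80 percentage points, with means of 58.9 ± 2.46% in KO and 52.1 ± 2.47% in WT (SD, n = 3 each). With 3 libraries against 3, the exact two-sided permutation p of 0.1 is the smallest possible, and it became 0.6 after Benjamini-Hochberg adjustment over 12 shares. The muscle-type Pfkm took 23.0 ± 3.86% in KO and 29.7 ± 2.07% in WT, again without overlap and with the same exact p. The platelet-type Pfkp took 18.1 ± 1.89% in KO and 18.2 ± 0.41% in WT. Over the 6 libraries Pfkm averaged 26.4% with the longest transcript, 16.1% with median lengths and 38.2% with union-of-exon lengths. Pfkp averaged 18.2, 27.0 and 9.47% in the same order, so which of Pfkm and Pfkp was larger depended on the length used. Pfkl led with each length, at 55.5, 56.9 and 52.4%. In CPM, Pfkl stood at 98.2, 108 and 115 in KO, against 104, 86.9 and 92.3 in WT, with a fitted log2 fold change of 0.18 ± 0.21 (SE; adjusted p = 0.578, edgeR). Pfkm stood at 28.0, 40.4 and 28.8 CPM in KO, against 42.6, 36.0 and 46.5 CPM in WT, with a fitted log2 fold change of -0.36 ± 0.24 (SE; adjusted p = 0.318).

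**Figure D4:**
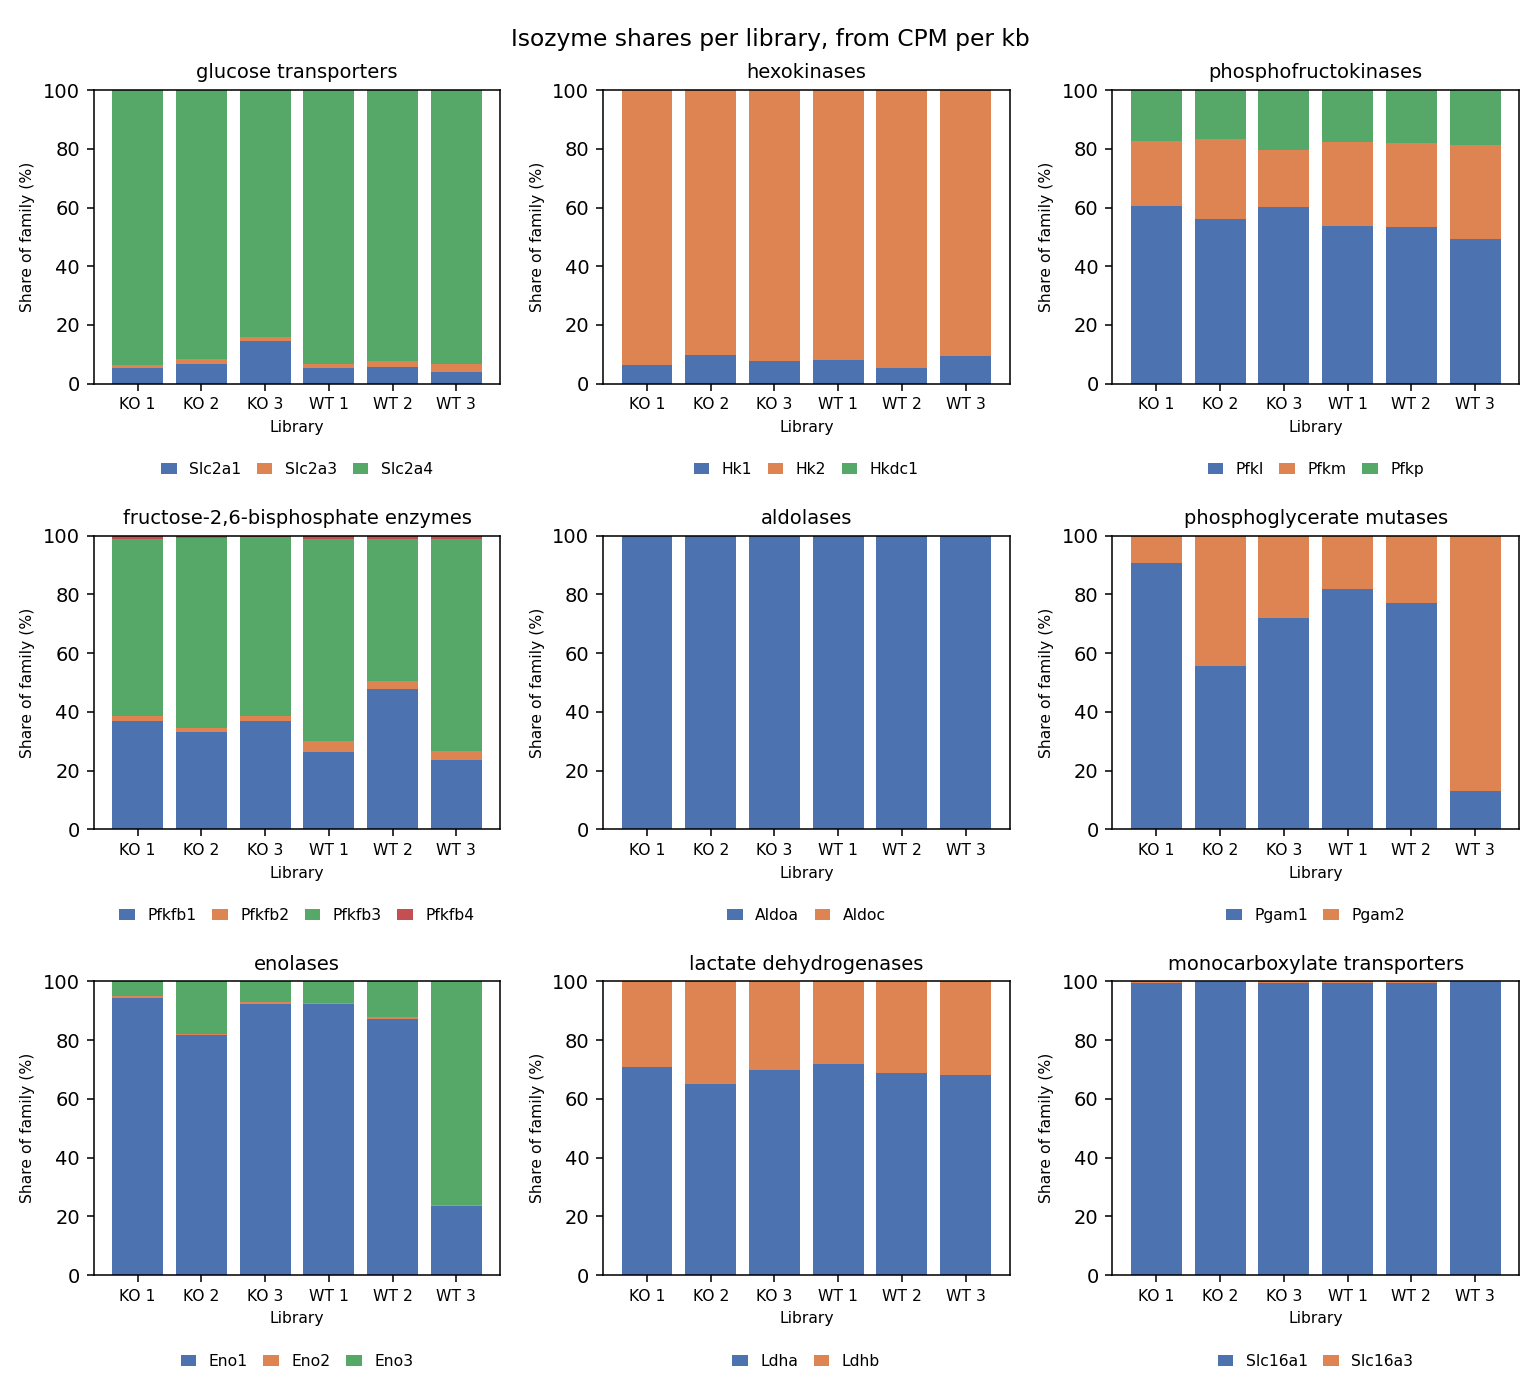
Share of each isozyme in its family (y axis, %, from CPM per kb) in each library (x axis), for 9 families; each bar is 1 library and its colours are the isozymes. Slc2a4, Hk2, Pfkl, Pfkfb3, Aldoa, Ldha and Slc16a1 led their families on average in both groups, and in WT 3 Pgam2 and Eno3 took the larger share.

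Aldoa supplied 99.9% of aldolase CPM per kb in both groups, Aldoc, the brain-type aldolase, the rest. Aldoa had 1064, 869 and 1179.5 CPM in KO, against 638, 755 and 698 CPM in WT. Every KO library lay above every WT library, with a fitted log2 fold change of 0.57 ± 0.23 (SE; adjusted p = 0.119, edgeR), which was 0.01 with the longest-transcript offsets. Tpi1 had 236, 251 and 286 CPM in KO, against 165, 229 and 167 CPM in WT, a fitted log2 fold change of 0.46 ± 0.23 (SE; adjusted p = 0.193, edgeR). Pkm, whose M1 and M2 isoforms these counts do not separate, had 329, 319 and 417 CPM in KO, against 263, 251 and 215 CPM in WT (log2 fold change 0.55 ± 0.23 SE, adjusted p = 0.129 by edgeR). For each of Aldoa, Tpi1 and Pkm the groups did not overlap, and none passed the threshold.

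Lactate is made and exported by the last genes of the route. Ldha took 70.9, 65.0 and 69.8% of lactate dehydrogenase CPM per kb in the KO libraries, against 71.9, 68.8 and 68.3% in the WT libraries. Ldha had 1101, 721 and 1068 CPM in KO, against 643, 799.9 and 471 CPM in WT, a fitted log2 fold change of 0.59 ± 0.27 (SE; adjusted p = 0.161, edgeR). Ldhb had 325, 279.7 and 332 CPM in KO, against 181, 261 and 157 CPM in WT, without overlap and with a fitted log2 fold change of 0.65 ± 0.25 (SE; adjusted p = 0.108, edgeR). The share of Ldha differed by -1.11 percentage points, KO minus WT (exact two-sided permutation p = 0.8). Slc16a1 (MCT1), a monocarboxylate transporter, took 99.6% of the CPM per kb of its pair with Slc16a3 in both groups. It had 462, 406 and 420.1 CPM in KO, against 378, 405 and 322 CPM in WT, a fitted log2 fold change of 0.22 ± 0.22 (SE; adjusted p = 0.499, edgeR), and passed the threshold only with the median-transcript offsets (1.11, adjusted p = 0.047, with 0.928% of all genes called higher in that fit; 0.047 to 0.943 over the alternatives). Slc16a3 (MCT4), known from glycolytic muscle, lay between 0.574 and 2.96 CPM.

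The enzymes known from muscle stood apart in WT 3. Pgam2, the muscle phosphoglycerate mutase, had 1.15, 2.71 and 1.53 CPM in KO, against 1.30, 1.71 and 21.9 CPM in WT. Eno3, the muscle enolase, had 2.48, 4.51 and 2.45 CPM in KO, against 2.54, 3.62 and 34.5 CPM in WT. In both, WT 3 was far above the other 5 libraries and the other libraries overlapped. The log2 fold changes were -2.17 ± 1.22 (SE; adjusted p = 0.278, edgeR) for Pgam2 and -2.08 ± 1.09 (SE; adjusted p = 0.252) for Eno3, and without WT 3 they were 0.26 and 0.03. DESeq2 gave no adjusted p for either gene.

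The skeletal muscle markers moved with these genes. Summed over 16 markers, the level was 50.8, 149.5 and 74.5 CPM in KO, against 53.6, 120.2 and 1556 CPM in WT, and each of the 16 was highest in WT 3. Ckm, the muscle creatine kinase, had 3.10, 14.6 and 5.82 CPM in KO, against 4.51, 8.67 and 138 CPM in WT, while Mylk2 was at 0 in KO 2, KO 3 and WT 2, and Myh1 and Myh2 were at 0 in KO 1. WT 3, KO 2 and WT 2 were the 3 highest libraries for the marker sum, for Pgam2 and for Eno3. Pfkm was highest in WT 3 too, at 46.5 CPM, while Aldoa, Ldha and Slc2a4 were not. The family shares carry the same Pgam2 and Eno3 values and add nothing independent to them. Pgam1 took 13.0% of its family in WT 3 and 55.8 to 90.7% in the other libraries, and Eno1 took 23.6% in WT 3 and 81.7 to 94.5% in the others. The difference in share, KO minus WT, was 15.5 percentage points for Pgam1 and 21.7 for Eno1 (exact two-sided permutation p = 0.7 and 0.6), and without WT 3 it was -6.69 and -0.36. For the shares of Pfkl and Pfkm it was 5.37 and -5.53 points without WT 3.

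**Figure D5:**
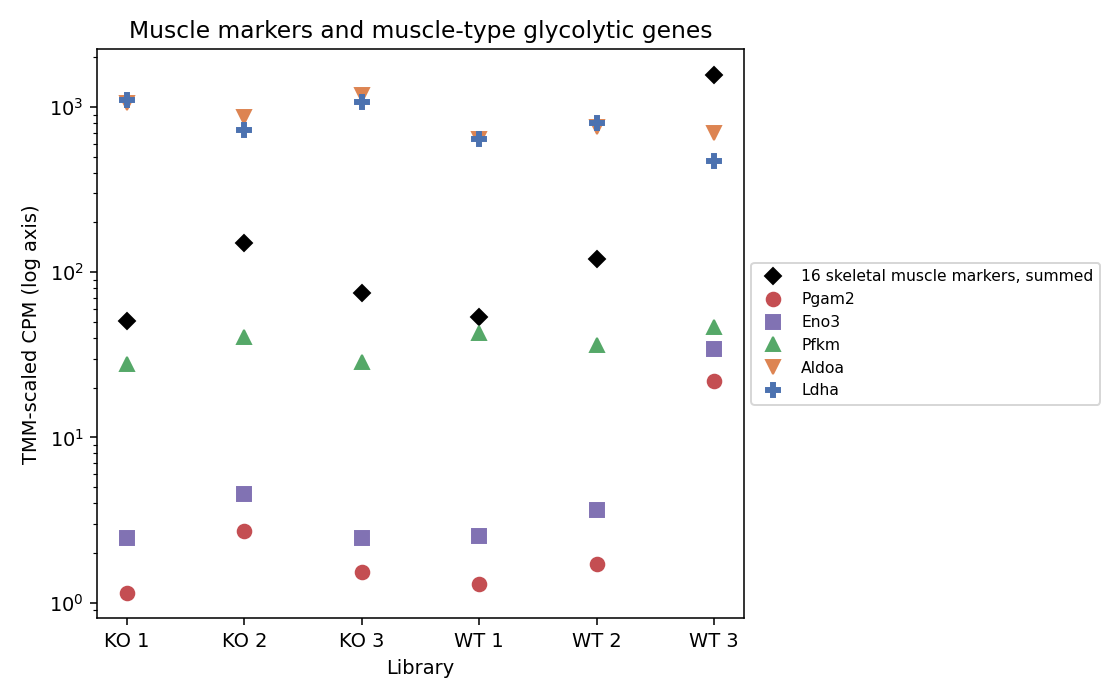
Level (y axis, TMM-scaled CPM, log axis) in each library (x axis) of the sum of 16 skeletal muscle markers and of Pgam2, Eno3, Pfkm, Aldoa and Ldha; each symbol is 1 library. The marker sum, Pgam2 and Eno3 are highest in WT 3, at 1556, 21.9 and 34.5 CPM, and Ldha is lowest there at 471 CPM.

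The housekeeping forms of the same steps gave these values. Pgam1 had 23.8, 7.22 and 8.27 CPM in KO, against 12.5, 12.1 and 6.91 CPM in WT, and Eno1 had 62.7, 26.6 and 41.0 CPM in KO, against 41.2, 33.4 and 13.8 CPM in WT. Pgk1 had 10.5, 3.94 and 5.92 CPM in KO, against 5.53, 6.07 and 1.97 CPM in WT. For Pgam1, Eno1 and Pgk1 the KO 1 library was highest and WT 3 lowest, and the groups overlapped. Adjusted p-values from edgeR were 0.629 for Pgam1, 0.351 for Eno1, 0.391 for Pgk1 and 0.798 for Gapdh.

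None of the 6 pentose phosphate genes passed the threshold (edgeR). Tkt had 692, 703 and 1066 CPM in KO, against 811, 511 and 756 CPM in WT, and Taldo1 had 665, 378 and 506 CPM in KO, against 369.8, 461 and 251 CPM in WT. Of the oxidative branch, Pgd (6-phosphogluconate dehydrogenase) stood at 128 ± 18.2 CPM in KO and 114 ± 9.18 CPM in WT (SD, n = 3 each). Pgls (6-phosphogluconolactonase) stood at 90.8 ± 20.3 CPM in KO and 63.2 ± 31.8 CPM in WT. Rpia, which isomerises ribose-5-phosphate, stood at 17.7 ± 3.22 CPM in KO and 13.0 ± 3.45 CPM in WT. Rpe, the ribulose-phosphate epimerase, had 89.2, 43.2 and 22.4 CPM in KO, against 94.8, 103 and 87.2 CPM in WT. Its KO libraries were far apart, KO 1 lying within the WT range, and the log2 fold change was -0.88 ± 0.40 (SE; adjusted p = 0.156, edgeR), or -1.53 without KO 1 (adjusted p = 0.009). It was -0.54 without KO 3, and -0.62 and -0.14 with the longest- and median-transcript offsets (adjusted p = 0.22 and 0.804), and over the alternatives the adjusted p ran from 0.009 to 0.804. Rpe overlaps Kansl1l on the other strand over 17.9% of its exonic bases, and reads of the pair cannot be told apart without the strand setting.

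Around the 35 genes, a list of 59 further genes of glucose metabolism had 44 tested members, of which 0 were higher and 1 was lower (edgeR), against 1.63 and 7.52% of all tested genes. At an unadjusted p under 0.05, 6 were higher and 6 lower, against 30.8% of all tested genes, and the median log2 fold change of the 44 was 0.16, against 0.03 over all tested genes. The gene called was Slc2a13, a proton-coupled myo-inositol transporter of the same family, with 0.442, 0.492 and 0.306 CPM in KO, against 1.24, 1.501 and 2.33 CPM in WT. Its groups did not overlap, and the log2 fold change was -1.97 ± 0.48 (SE; adjusted p = 0.032, edgeR), or -1.31 with the longest-transcript offsets (adjusted p = 0.128) and -1.58 with the median-transcript offsets (adjusted p = 0.072). Its call was also lost without KO 2, KO 3, WT 1 or WT 3, with log2 fold changes of -2.13, -1.82, -2.17 and -1.71, and its adjusted p ran from 0.019 to 0.128 over the alternatives. By sublist, 1 of 5 tested transporters was lower, and none of 4 isozymes of the same steps, 7 pentose phosphate genes, 11 regulators and partners or 17 genes of branches and reverse steps passed. DESeq2 called 1 gene higher (Arrdc4, an arrestin-domain protein related to Txnip) and 4 lower (Slc2a13; Gfpt1, which opens the hexosamine branch; Hif1a, the hypoxia-inducible factor; and Tbc1d4, a regulator of GLUT4 traffic), where it called 4.2% of genes higher and 11.5% lower. In edgeR, Hif1a, Gfpt1 and Tbc1d4 had log2 fold changes of -1.06, -0.98 and -0.97 without offsets. With the longest-transcript offsets these were -0.42, -0.29 and -0.47 (adjusted p = 0.284, 0.481 and 0.218). With the median-transcript offsets they were -0.54, -0.80 and -0.73 (adjusted p = 0.184, 0.102 and 0.097). Arrdc4 had 0.93 without offsets, and 1.14 and 1.06 with them (adjusted p = 0.101 and 0.097). G6pdx, the glucose-6-phosphate dehydrogenase that opens the pentose phosphate pathway, stood at 73.0 ± 22.3 CPM in KO and 73.0 ± 21.9 CPM in WT (SD, n = 3 each).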

How the data were processed

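The labels' protocols name a KAPA mRNA kit. The authors deposited raw read counts per Ensembl gene, 1 file per library, with no normalization. The submitters' processing notes list STAR 2.5.4b and build mm9. Not given in the sources used here are the counting program, strand setting, read length and rule for multi-mapping reads.

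The tests used edgeR 4.0.16 in R 4.3.3, with filterByExpr (minimum count 10, minimum total 15), TMM scaling and the robust quasi-likelihood F test (two-sided) on all 12068 genes, with Benjamini-Hochberg adjustment and a threshold of 0.05. Levels are TMM-scaled CPM computed here. DESeq2 1.42.0, limma 3.58.1 (voom) and offsets for length and GC content (mgcv 1.9.3, basis size 6, prior count 2) were alternatives, as were other scalings and filters, the replicate number as a block, and each library left out. Isozyme shares were compared by exact permutation. Symbols, lengths and shared 50-base windows came from GENCODE M21 on GRCm38, matching 32897 of 37620 identifiers. No pair of libraries held identical values.

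The members and lists were chosen with earlier results of these data known, although the rule itself names symbols and no measured value. Values per library are given for members past the threshold, for each family's leading isozyme and for isozymes known from muscle; wider-list genes are named where they pass. Per-library values of other members, the genes called by DESeq2, G6pdx and the Eno1 copy were chosen after their values were seen. So were the printed values of single cell type markers. Totals of 10576800 to 14239307 counts set the counting precision, and the floor of 3 counts covers counting error only.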

Additional observations from a re-analysis of the deposited data

How the results depend on the processing

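Of 594 refitted fold changes of the 33 tested members under 18 alternatives, 559 kept their sign and 35 changed sign with no call in either fit; 6 were newly called and 6 no longer called. The count of members higher, 0 as reported, was 1 with DESeq2 or median-transcript offsets, and 0 to 1 with a library left out. The count lower, 1 as reported, was 2 with the replicate block, 0 with either set of offsets or at an adjusted p of 0.01, and 0 to 2 with a library left out: 2 without KO 1 and 0 without KO 2, KO 3, WT 1 or WT 3. Calls were lost across the whole table in some of these fits (edgeR): 0 passed without WT 1, 2 (both higher) without KO 3 and 1 (higher) with longest-transcript offsets, where 2251, 2672 and 2786 genes had an unadjusted p under 0.05. In the wider list, the count higher was 1 with DESeq2 and 0 to 1 with a library left out. The count lower, 1 as reported, was 4 with total counts only, DESeq2 or no filter, 3 with the 1 CPM filter or the replicate block, 2 with limma-voom, 0 with either set of offsets or an adjusted p of 0.01, and 0 to 4 with a library left out.

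The sign changes, none with a call in either fit, were these log2 fold changes. With longest-transcript offsets they were Slc2a3 0.32, Pfkp 0.67, Pfkfb1 0.0014, Tpi1 -0.0008, Pgam1 -0.12 and Taldo1 -0.0087. With median-transcript offsets they were Slc2a4 -0.039, Pfkl -0.21, Pfkfb1 0.057, Gapdh -0.22, Slc16a3 -0.23 and Pgd -0.11. With total counts only they were Pfkl -0.10, Gapdh -0.085, Slc16a1 -0.049, Slc16a3 -0.17, Pgd -0.10 and Tkt -0.047. Slc16a3 was -0.087 with limma-voom. Pfkp, at -0.0001 as reported, was 0.0094 with RLE, 0.062 with upper-quartile scaling and 0.0044 with the 1 CPM filter. With a library left out, the ranges were -0.14 to 0.11 for Pfkp, -0.16 to 0.087 for Pfkfb1, -0.16 to 0.47 for Gapdh, -0.44 to 0.58 for Pgam1, -2.70 to 0.26 for Pgam2, -2.59 to 0.03 for Eno3, -0.41 to 0.57 for Slc16a3 and -0.0041 to 0.37 for Tkt.

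Deviations from the group means correlated at 0.145, -0.534 and 0.0318 between same-numbered libraries, and at -0.424 to 0.545 between differently numbered ones. Deviations within a group of 3 sum to 0 and so constrain one another. These values therefore cannot decide whether the libraries were paired. With the replicate block, Rpe was called lower (-1.10, adjusted p = 0.032). Ldhb was called higher without WT 2 (0.89, adjusted p = 0.032). Of 108 recomputed isozyme shares, 18 changed the sign of KO minus WT, and the exact test cannot go below 0.1 for any of them. Pfkp was 0.31 points with union-of-exon lengths and Pfkfb3 0.44 with median lengths. With a library left out, the ranges that crossed 0 were -1.26 to 0.79 percentage points for Hk2, -1.16 to 0.60 for Pfkp, -8.56 to 3.51 for Pfkfb3, -0.0057 to 0.028 for Aldoa, -2.27 to 0.68 for Ldha and -0.14 to 0.15 for Slc16a1. The shares that changed sign without WT 3 alone ranged from -6.69 to 27.8 points for Pgam1, -0.36 to 34.0 for Eno1 and -34.3 to 0.16 for Eno3. The cause of these changes was not tested. Counted per unshared window, an alternative chosen after seeing the data, the mean Eno1 share over 6 libraries was 89.4%, against 78.6% per kb. With median and union-of-exon lengths the mean Pfkfb3 share was 76.4 and 68.6%, against 62.5% with the longest transcript. That of Ldha was 76.3 and 59.6%, against 69.1%. Depth limits the rarest genes most, Eno2 and Hkdc1 among them.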
